A study of Mus musculus with 2 samples.

Results

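Interleukins and related cytokine ligands are secreted signals that bind paired receptor chains on nearby cells. The 46 genes described here were chosen by symbol: the interleukin genes named with a number and at most 1 family letter, without receptors, plus Iltifb, Il1rn, Ebi3, Tslp, Csf1, Csf2, Csf3, Lif, Osm, Clcf1, Ctf1, Kitl, Flt3l and Ifng. They are 46 of the 23411 genes that both deposited tables held. Il12b was not analysed here. Reads were counted in 2 libraries of medullary thymic epithelial cells (mTEC) from the thymus of B6 mice, 1 of cells with high surface MHC class II (MHC-II high) and 1 of cells with low surface MHC class II (MHC-II low). Both sorted fractions came from the same pool of 3 mice, no treatment was named, and no source states the age of the mice. With 1 library per group, every difference below is between 2 libraries and has no replicate check.

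In the thymic medulla, epithelial cells, dendritic cells and developing T cells exchange such signals. IL-7 sustains early T cell precursors, IL-15 sustains lineages related to natural killer cells, and IL-25 is made by chemosensory tuft cells. mTEC are also known to transcribe many genes that are otherwise limited to other tissues and cell types, largely through the regulator Aire, and several interleukin genes are best known from activated T cells or myeloid cells.

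The 23411 genes held 138368535 reads in the MHC-II high library and 56077479 in the MHC-II low library. CPM are counts scaled to a common depth by TMM totals of 152834157 reads (MHC-II high) and 50769794 reads (MHC-II low). Ratios are MHC-II high over MHC-II low, with an exact 95% Clopper-Pearson interval that covers counting error only, since each group has 1 library. The PCR reads carry no molecular identifiers, so PCR copies count as separate reads and the interval may be too narrow. A call of higher or lower needed an interval entirely past 2-fold and a mean of at least 1 CPM over both libraries. Markers were checked against the labels. Aire was at 571 CPM in the MHC-II high and 21.0 CPM in the MHC-II low library, and all 8 mature mTEC genes were called higher and all 6 immature ones (Ccl21a, Krt5 and Krt14 among them) lower. Of the sorted molecule's own chains, H2-Aa, H2-Eb1 and H2-Ab1 had ratios of 2.00, 1.64 and 1.26 and were not called.

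Every one of the 46 ligand genes had reads in both libraries, and 33 had more CPM in the MHC-II high and 13 more in the MHC-II low library. Of 40 members past the minimum, 22 were called higher, 7 lower and 11 neither, while 14.5% of all 17438 genes past the minimum were called higher and 10.9% lower. Of these 40, 13 passed the minimum only through the MHC-II high library, 12 of them called higher, and 1 (Csf3) only through the MHC-II low library, called lower. Such a gene had to differ to be counted. Of the 26 members with at least 1 CPM in both libraries, 10 were called higher, 6 lower and 10 neither. The share of all genes called under that filter was not computed. Without any minimum, 25 of all 46 members had intervals above 2-fold and 7 below, against 12.1% and 16.3% of 23411 genes. The median log2 ratio was 1.54 over the 40 members and −0.01 over all genes past the minimum. At a minimum of 5 CPM, 11 of 24 members were called higher and 6 lower, with a median of 0.58. Of all 13451 genes past that minimum, 1652 were called higher and 1427 lower, with a median of −0.0512. The balance also moved with the library scaling. With the library totals implied by the deposited RPKM, 24 members were called higher and 4 lower, against 45.2% and 2.94% of all genes, and the median over all genes was 0.997. With unscaled totals the counts were 22 and 5, against 19.8% and 7.35%, and that median was 0.28.

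**Figure D1:**
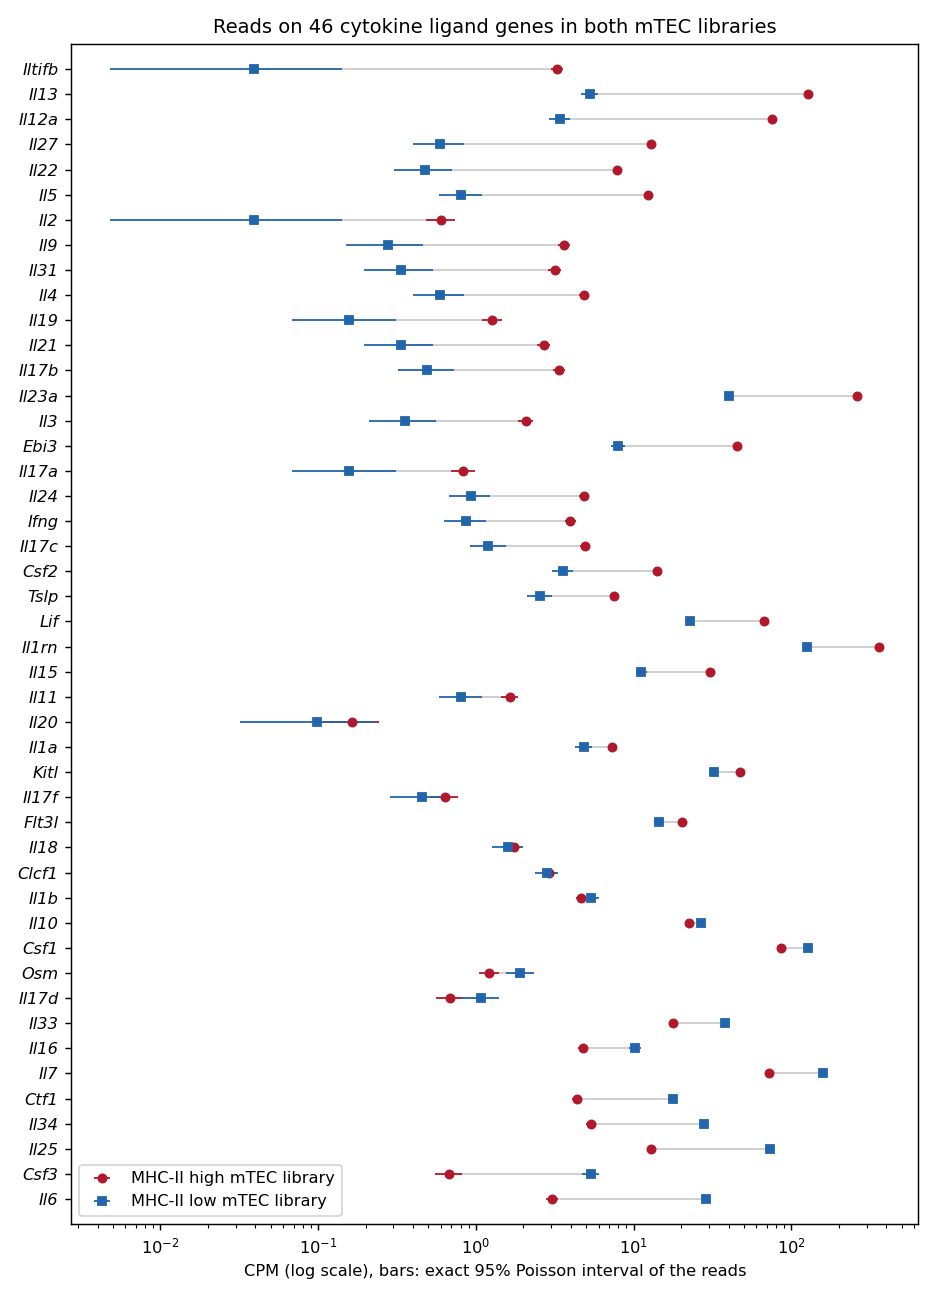
CPM of each of the 46 cytokine ligand genes (rows, sorted by ratio) in the MHC-II high library (red circles) and the MHC-II low library (blue squares) on a log axis, with exact 95% Poisson intervals of the reads. The genes run from Iltifb, with 3.25 CPM in the MHC-II high and 0.0394 CPM in the MHC-II low library, down to Il6, with 3.05 CPM in MHC-II high and 28.6 CPM in MHC-II low.

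Markers of other cells that a sort could carry over differed between the libraries as well. Of 10 dendritic cell and macrophage genes past the minimum, 5 were called higher and 0 lower, and the summed level of 11 such genes was 530 CPM in the MHC-II high and 169 CPM in the MHC-II low library. Lyz2 alone was at 362 CPM in the MHC-II high and 74.0 CPM in the MHC-II low library. Itgax, Clec9a and Siglech of the same list had ratios of 0.597, 0.511 and 0.794 and were not called, Siglech being under the minimum. Of 9 mast cell and granulocyte genes 7 were past the minimum and all 7 were called higher, with summed levels of 247 CPM in MHC-II high and 45.8 CPM in MHC-II low. Under the minimum were Cpa3, with a ratio of 1.64 (0.996 to 2.85), and Elane, with a ratio of 0.423 (0.178 to 1.03) on 14 reads in MHC-II high and 11 in MHC-II low. T cell genes summed to 82.4 CPM in the MHC-II high and 111 CPM in the MHC-II low library, with 1 of 11 higher and 2 lower, and Cd3e at 1.46 CPM in MHC-II high and 2.72 CPM in MHC-II low. Summed innate lymphoid and natural killer cell genes were at 78.6 CPM in MHC-II high and 61.5 CPM in MHC-II low, with 3 of 5 called higher and 0 lower, and their marker Ncr1 had 11 reads (MHC-II high) and 29 reads (MHC-II low). B cell genes summed to 30.1 CPM in MHC-II high and 24.1 CPM in MHC-II low, with 2 of 4 called higher. The receptor genes Csf1r and Flt3 are in the first of these lists and Il7r in the lymphoid one. In the other direction, all 9 endothelial genes were called lower, with 82.2 CPM in MHC-II high against 615 CPM in MHC-II low summed, and 5 of 9 fibroblast and mural genes were called lower and 0 higher, with 435 CPM in MHC-II high against 1272 CPM in MHC-II low. Tuft-like genes, Il25 itself among them, were called lower in 10 of 11 cases, with 617 CPM in MHC-II high against 2205 CPM in MHC-II low. Of 5 erythroid genes past the minimum 4 were called lower, with 70.4 CPM in MHC-II high against 2628 CPM in MHC-II low, and 6 cornified cell genes summed to 837 CPM in MHC-II high against 915 CPM in MHC-II low, with 1 called higher. No gene of these lists in the tables was at 0 reads in either library. The part of such cells in the ligand differences was not tested. In bulk RNA, fewer cells of a type and less RNA per cell cannot be told apart.

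Set per kilobase of transcript, the ligand repertoire of the 2 libraries had different leading genes. The MHC-II high library was led by Il23a at 193, Il1rn at 146, Il13 at 105 and Il12a at 59.1 CPM per kilobase, and the first 3 held 53.9% of the summed level of all 46 genes. The MHC-II low library was led by Il25 at 68.5, Il7 at 63.7 and Il1rn at 50.9 CPM per kilobase, and these 3 held 44.1%. Il1rn was the gene in the first 3 of both. Il13 ranked 3rd of 46 (MHC-II high) and 16th (MHC-II low), while Il25 ranked 14th (MHC-II high) and 1st (MHC-II low). The level summed over the 46 genes was 823 CPM per kilobase in the MHC-II high and 416 in the MHC-II low library. At the low end, Il20 at 0.199 CPM per kilobase was last in the high library and Iltifb at 0.0355 was last in the low library.

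**Figure D2:**
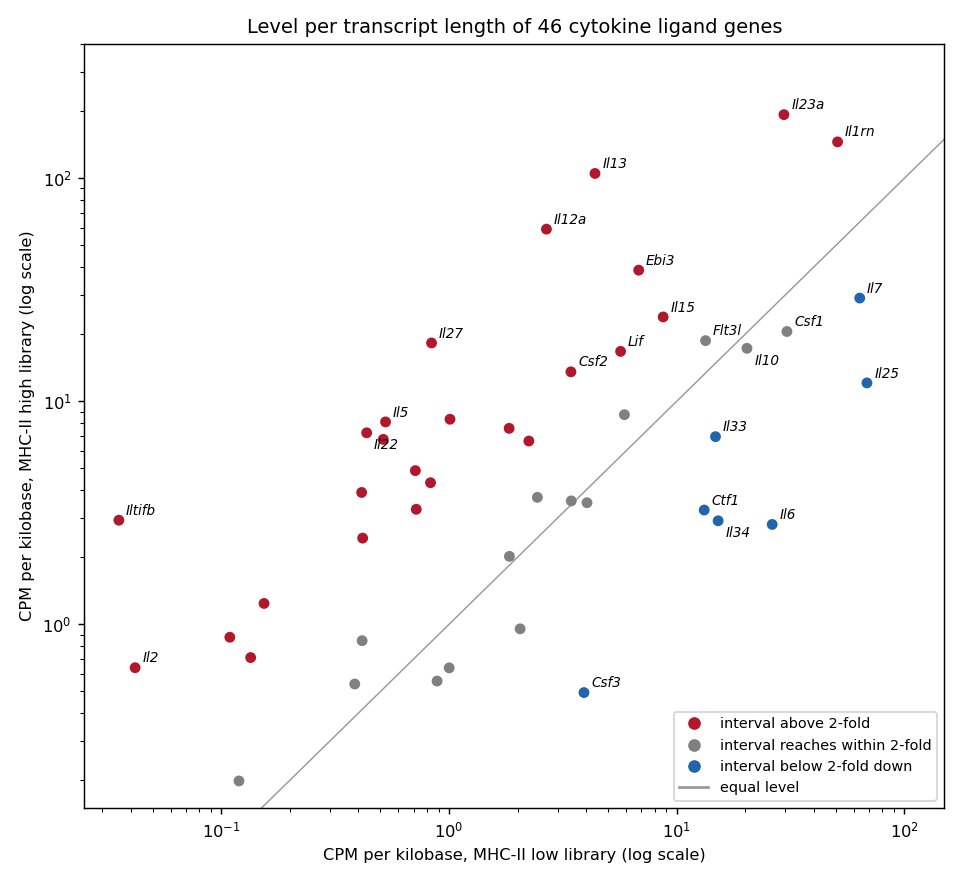
Level per transcript length of the 46 genes, in CPM per kilobase, in the MHC-II high library (vertical, log scale) against the MHC-II low library (horizontal, log scale). Il23a, Il1rn, Il13 and Il12a stand at the top, and Il25, Il7 and Il6 lie to the right below the line of equal level.

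The 4 IL-12 family genes analysed here, which leave out Il12b, were each called higher. Il27 passed the minimum only by its level in MHC-II high. These cytokines are pairs of chains, and Il23a encodes the p19 chain of IL-23, Il12a the p35 chain of IL-12, and Il27 and Ebi3 the chains of IL-27. Il23a had 40056 reads or 262 CPM in the MHC-II high library, against 2041 reads or 40.2 CPM in the MHC-II low library. It was the most abundant ligand of the high library per length and was abundant in the low library too, a ratio of 6.52 (6.24 to 6.82). Il12a had 11498 reads or 75.2 CPM in the high library, against 173 reads or 3.41 CPM in the low library. The Il12a ratio was 22.1 (19.0 to 25.8). Its 2 listed transcripts gave log2 ratios within 0.01 of each other, 4.46 each. Their counts were nearly the same, 11498 and 11493 reads in MHC-II high and 173 each in MHC-II low, so this is no separate check. Il27 had 1968 reads in MHC-II high against 30 reads in MHC-II low, a ratio of 21.8 (15.2 to 32.4), and its partner Ebi3 had 6930 reads in MHC-II high against 405 reads in MHC-II low, a ratio of 5.68 (5.14 to 6.30). Il27 shares exon sequence with Apobr on the opposite strand in GENCODE vM21. Without strand their reads cannot be told apart there, and Apobr had a log2 ratio of 1.40 against 4.45 for Il27.

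Type 2 cytokines and the alarmins that call for them split in direction, with 5 of 7 called higher and 2 lower, though Il4, Il5 and Il9 passed the minimum only through the MHC-II high library. Il13, which drives mucus and barrier responses, had 19371 reads or 127 CPM in the MHC-II high library, against 268 reads or 5.28 CPM in the MHC-II low library. The Il13 ratio of 24.0 (21.3 to 27.2) was the second highest of the 46, after Iltifb. Il5, the growth factor of eosinophils, was at 12.4 CPM in MHC-II high against 0.808 CPM in MHC-II low, a ratio of 15.4 (11.3 to 21.5). Il4, the inducer of type 2 helper cells, was at 4.86 CPM in MHC-II high against 0.591 CPM in MHC-II low (ratio 8.23, 5.71 to 12.3), and Il9, which acts on mast cells, at 3.62 CPM in MHC-II high against 0.276 CPM in MHC-II low (ratio 13.1, 7.75 to 24.2). All 3 rest on 14 to 41 reads in the MHC-II low library, and a longer non-coding Il4 transcript gave a log2 ratio of 2.52 against 3.04. Tslp, an epithelial alarmin, was at 7.52 CPM in MHC-II high against 2.54 CPM in MHC-II low, a ratio of 2.96 (2.46 to 3.58).

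Il25 and Il33, also alarmins, were called lower. Il25 had 1964 reads or 12.9 CPM in the MHC-II high library, against 3697 reads or 72.8 CPM in the MHC-II low library. That is 5.67-fold lower in the high library (5.36 to 5.99), and Il25 was the top ligand of the low library per length. The tuft-like genes Trpm5 and Avil were lower too, at 117 CPM in MHC-II high against 407 CPM in MHC-II low and 130 CPM in MHC-II high against 563 CPM in MHC-II low. Il33, an IL-1 family cytokine held in the nucleus, was at 17.7 CPM in MHC-II high against 37.8 CPM in MHC-II low, 2.13-fold lower (2.01 to 2.26). The Il33 interval was near the 2-fold limit, and the call was lost with unscaled totals (log2 ratio −0.81), with median-of-ratios factors (−1.08), with the RPKM totals (−0.09) and with TMM factors set on all genes (−0.97).

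The promoters of the type 2 genes Il13, Il5 and Il4, which lie in 1 locus and were called higher together, are shown beside that of Il6, the member with the lowest ratio. Each holds 250 bases before and 50 from the RefSeq start site, 5′ to 3′ on the gene's own strand, on build GRCm38.p6. Capitals mark matches to TATAAA (forward strand only) and, on both strands, to the NFAT core GGAAA, the GATA motif AGATAA, the AP-1 motif TGANTCA and the kappa-B consensus. The windows are chr11:53634653-53634952 (minus strand) for Il13, chr11:53720544-53720843 (plus strand) for Il5, chr11:53618616-53618915 (minus strand, the more upstream of 2 listed starts) for Il4 and chr5:30012864-30013163 (plus strand) for Il6.
Il13: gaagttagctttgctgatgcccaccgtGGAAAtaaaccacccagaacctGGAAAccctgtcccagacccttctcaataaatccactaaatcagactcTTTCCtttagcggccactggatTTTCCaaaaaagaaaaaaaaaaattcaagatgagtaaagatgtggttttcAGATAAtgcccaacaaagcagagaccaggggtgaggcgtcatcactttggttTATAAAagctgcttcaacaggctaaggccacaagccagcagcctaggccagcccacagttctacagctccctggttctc
Il5: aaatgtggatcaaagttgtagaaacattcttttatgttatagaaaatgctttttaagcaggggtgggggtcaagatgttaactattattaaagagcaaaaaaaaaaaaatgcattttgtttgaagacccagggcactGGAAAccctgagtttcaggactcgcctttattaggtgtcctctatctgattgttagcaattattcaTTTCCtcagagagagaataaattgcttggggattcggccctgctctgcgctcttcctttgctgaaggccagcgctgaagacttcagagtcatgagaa
Il4: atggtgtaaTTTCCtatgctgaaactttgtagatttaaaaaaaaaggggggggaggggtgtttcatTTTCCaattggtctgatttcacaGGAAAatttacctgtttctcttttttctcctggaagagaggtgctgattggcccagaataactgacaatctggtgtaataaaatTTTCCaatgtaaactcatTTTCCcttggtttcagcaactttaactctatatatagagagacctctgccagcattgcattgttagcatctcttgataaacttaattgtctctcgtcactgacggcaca
Il6: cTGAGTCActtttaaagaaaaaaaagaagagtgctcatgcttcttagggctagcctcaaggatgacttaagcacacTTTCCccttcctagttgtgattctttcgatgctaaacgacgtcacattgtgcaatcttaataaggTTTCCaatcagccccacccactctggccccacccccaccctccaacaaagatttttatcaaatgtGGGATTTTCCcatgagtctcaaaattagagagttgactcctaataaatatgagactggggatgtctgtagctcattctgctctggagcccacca

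The Il13 window held TATAAA at position −29 and AGATAA at −81, counted to the first base of the match from the start site at 0. It also held 4 matches to GGAAA. Il4 held 5 such matches and Il5 held 2, and neither held TATAAA in this window. Il6 held 3 matches to GGAAA, the AP-1 motif at −249 and a kappa-B match at −44, which overlaps the GGAAA match at −39. Across the 33 members with a promoter of 300 bases in the RefSeq table (all but Clcf1, Csf3, Il10, Il15, Il17b, Il23a, Il24, Il25, Il27, Il34, Il7, Osm and Tslp), 11 (33.3%) held TATAAA, against 9.77% of 27025 genes. AP-1 matches were in 8 members (24.2%) against 8.97%, kappa-B matches in 5 (15.2%) against 5.14%, GGAAA in 30 (90.9%) against 64.4%, and AGATAA in 4 (12.1%) against 12.7%. The median number of CG dinucleotides per 300 bases was 5 in the members and 7 in all genes. Among the 16 of these members called higher, 4 held TATAAA and 4 held AGATAA. A match is a run of letters and not evidence that a factor binds there.

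Cytokines that signal through the common gamma chain did not go one way. Il4, Il9, Il21 and Il15 were called higher, the first 3 of them past the minimum only through the MHC-II high library, and Il7 was called lower. Il7, the survival factor of early T cells, had 10979 reads or 71.8 CPM in the MHC-II high library, against 8001 reads or 158 CPM in the MHC-II low library. It was 2.19-fold lower in the high library (2.13 to 2.26) and still ranked 6th there per length. The Il7 call was lost with unscaled totals (log2 ratio −0.85), with the RPKM totals (−0.13) and with TMM factors set on all genes (−1.02). Il15 went the other way, at 30.7 CPM in MHC-II high against 11.2 CPM in MHC-II low, a ratio of 2.74 (2.51 to 2.99). Il21, a product of follicular helper T cells, had 411 reads in MHC-II high against 17 reads in MHC-II low, a ratio of 8.03 (4.95 to 13.9). Il2, the T cell growth factor, was under the minimum with 92 reads in MHC-II high against 2 reads in MHC-II low, a ratio of 15.3 with limits of 4.11 and 128.

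In the IL-10 family Il22, Iltifb and Il24 were called higher, and all 3 passed the minimum only through the MHC-II high library. Il10, the family member with at least 1 CPM in both libraries, was not called. Il22, which acts on epithelial barriers, had 1200 reads or 7.85 CPM in the MHC-II high library, against 24 reads or 0.473 CPM in the MHC-II low library. Its copy Iltifb had 497 reads in MHC-II high against 2 reads in MHC-II low. The ratios were 16.6 (11.1 to 26.0) for Il22 and 82.5 (22.7 to 684) for Iltifb, and 21.7 (14.7 to 33.3) for their summed reads. Their GENCODE transcripts of 1110 and 1111 bases were 97.4% identical where aligned, and 20.4% of all 100-base windows of Il22 were found unchanged in Iltifb. Reads could therefore be split or counted on either copy, and the 2 ratios are uncertain. Il24 had 736 reads in MHC-II high against 47 reads in MHC-II low, a ratio of 5.20 (3.87 to 7.14). Il19 had 194 reads in MHC-II high against 8 reads in MHC-II low (ratio 8.06, 4.01 to 18.9) and Il20 had 25 reads in MHC-II high against 5 reads in MHC-II low (ratio 1.66, 0.625 to 5.56), both under the minimum. Il10 itself, the suppressive cytokine, was at 22.6 CPM in MHC-II high against 26.6 CPM in MHC-II low, a log2 ratio of −0.24 that turned to 0.05 with unscaled and 0.77 with RPKM totals.

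Of the IL-17 family 3 members passed the minimum, Il17b only through the MHC-II high library. Il17c, an epithelial member, was at 4.95 CPM in MHC-II high against 1.20 CPM in MHC-II low, a ratio of 4.12 (3.17 to 5.44), and Il17b at 3.38 CPM in MHC-II high against 0.492 CPM in MHC-II low, a ratio of 6.87 (4.60 to 10.7). The third was Il25, given above. The 3 others were low in both libraries. Il17a had 127 reads in the MHC-II high and 8 in the MHC-II low library, a ratio of 5.27 (2.60 to 12.5). Its neighbour Il17f had 97 reads in MHC-II high and 23 reads in MHC-II low, a ratio of 1.40 with an interval of 0.882 to 2.31. Il17d had 104 reads in MHC-II high and 55 reads in MHC-II low, a log2 ratio of −0.67 that turned to 0.33 with the RPKM totals.

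Among the IL-1 family the antagonist gene was called higher and the agonist genes Il1a, Il1b and Il18 were not called. Il1rn, which encodes the IL-1 receptor antagonist, had 55182 reads or 361 CPM in the MHC-II high library, against 6408 reads or 126 CPM in the MHC-II low library. It had more reads than any other member in the high library, a ratio of 2.86 (2.79 to 2.94). Il1a was at 7.32 CPM in MHC-II high against 4.83 CPM in MHC-II low (ratio 1.52, 1.32 to 1.75) and Il18 at 1.75 CPM in MHC-II high against 1.60 CPM in MHC-II low (ratio 1.09, 0.851 to 1.42). Il1b was at 4.66 CPM in MHC-II high against 5.36 CPM in MHC-II low, a log2 ratio of −0.20 that turned to 0.09 with unscaled and 0.80 with RPKM totals. Per length Il1rn stood at 146 CPM per kilobase in the high library, against 3.71 for Il1a and 3.51 for Il1b there.

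Cytokines that use gp130 or its relatives were called in both directions, 2 higher, 2 lower and 3 neither, with Il31 and Il11 past the minimum only through the MHC-II high library. Il6 was the member with the lowest ratio, with 466 reads or 3.05 CPM in the MHC-II high library, against 1450 reads or 28.6 CPM in the MHC-II low library. This is 9.37-fold lower in the high library (8.43 to 10.4). Ctf1, cardiotrophin 1, was at 4.38 CPM in MHC-II high against 17.8 CPM in MHC-II low, 4.06-fold lower (3.67 to 4.49), a call lost with the RPKM totals (log2 ratio −1.02). Lif, which maintains stem cells in culture, was at 67.2 CPM in MHC-II high against 22.8 CPM in MHC-II low, a ratio of 2.95 (2.78 to 3.14). Il31, an itch cytokine, was at 3.16 CPM in MHC-II high against 0.335 CPM in MHC-II low, a ratio of 9.44 (5.83 to 16.3). Il11 had 251 reads in MHC-II high against 41 reads in MHC-II low, with an interval of 1.46 to 2.90 around 2.03. Clcf1 was at 2.92 CPM in MHC-II high against 2.82 CPM in MHC-II low. Osm was at 1.22 CPM in MHC-II high against 1.91 CPM in MHC-II low, a log2 ratio of −0.65 that turned to 0.35 with the RPKM totals.

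Haematopoietic growth factors split evenly, with 3 of 9 called higher, 3 lower and 3 neither, counting Il5 and Il7. Il3 and Il5 passed the minimum only through the MHC-II high library and Csf3 only through the MHC-II low library. Csf2, the granulocyte and macrophage factor, was at 14.0 CPM in MHC-II high against 3.55 CPM in MHC-II low, a ratio of 3.95 (3.39 to 4.62), and Il3, a factor for many lineages, at 2.07 CPM in MHC-II high against 0.355 CPM in MHC-II low, a ratio of 5.83 (3.63 to 9.97). Csf3, the granulocyte factor, had 103 reads or 0.674 CPM in MHC-II high against 271 reads or 5.34 CPM in MHC-II low, 7.92-fold lower (6.29 to 10.04). Il34 and Csf1 encode the 2 ligands of the macrophage receptor Csf1r. Il34 was at 5.35 CPM in MHC-II high against 27.9 CPM in MHC-II low, 5.22-fold lower (4.79 to 5.70), while Csf1 was at 85.9 CPM in MHC-II high against 127 CPM in MHC-II low, a log2 ratio of −0.57 that turned to 0.43 with the RPKM totals. Kitl, the ligand of Kit, was at 47.5 CPM in MHC-II high against 32.1 CPM in MHC-II low (ratio 1.48, 1.40 to 1.56) and Flt3l, which drives dendritic cell development, at 20.1 CPM in MHC-II high against 14.4 CPM in MHC-II low (ratio 1.40, 1.29 to 1.52). Endothelial and fibroblast genes, with the values given above, were lower in the same library as Il6, Csf3 and Il34. The endothelial marker Pecam1 was at 7.60 CPM in MHC-II high against 163 CPM in MHC-II low and the fibroblast gene Dcn at 57.2 CPM in MHC-II high against 535 CPM in MHC-II low. Their part was not tested.

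Ifng, the type II interferon, had 605 reads or 3.96 CPM in the MHC-II high library, against 44 reads or 0.867 CPM in the MHC-II low library. Its ratio was 4.57 (3.36 to 6.35), and its level in MHC-II high alone took it past the minimum. Il16, a chemoattractant cut from a larger protein, was at 4.76 CPM in MHC-II high against 10.2 CPM in MHC-II low, 2.15-fold lower with an interval that reached 1.92. Its exons overlap those of Stard5 on the opposite strand, which had a log2 ratio of −1.55 against −1.10 for Il16.

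**Figure D3:**
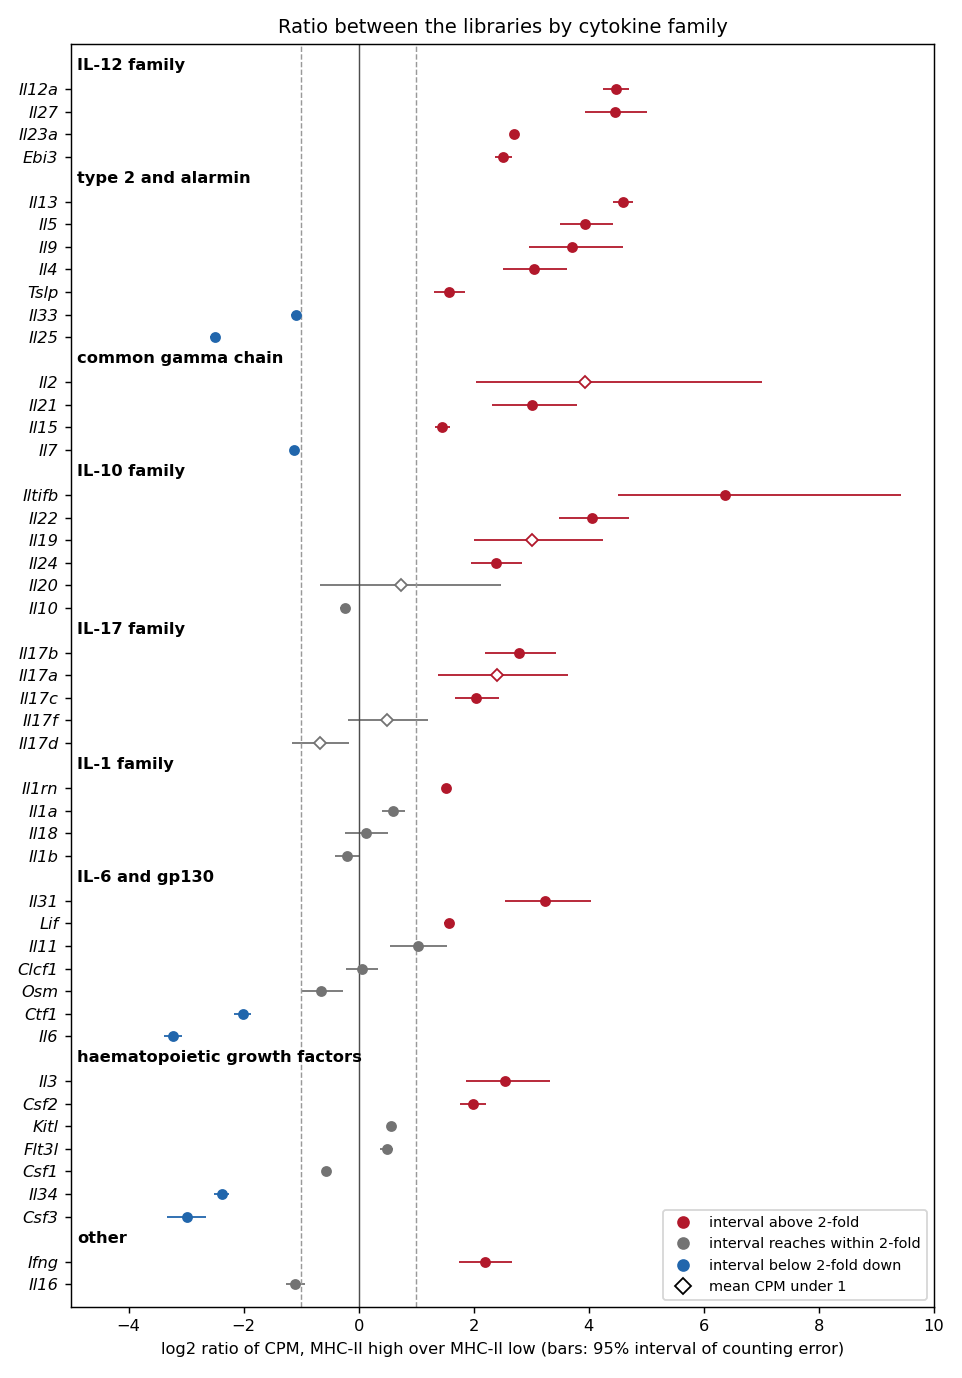
Log2 ratio of CPM, MHC-II high over MHC-II low, for the 46 genes by family, each gene drawn once, with 95% intervals of counting error. Dashed lines mark 2-fold, red and blue points have whole intervals beyond it, and open diamonds mark the 6 genes with a mean CPM under 1. The 4 IL-12 family genes lie at 2.51 to 4.46, while Il6, Csf3 and Il25 lie at −3.23, −2.99 and −2.50.

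Position sets some of these genes beside each other, which the choice by symbol did not use. By RefSeq gene order 20 of the 46 fell into 8 clusters with at most 1 other protein-coding gene between members. The clusters' 33 other genes, those between members and the 2 on either side, had a median log2 ratio of 0.52, with 7 called higher and 2 lower. Of all genes past the minimum 14.5% were called higher and 10.9% lower, with a median of −0.01. The 33 include genes under the minimum, such as Hormad2 and Meikin, which could not be called. In the type 2 locus the members Il4, Il13 and Il5 had log2 ratios of 3.04, 4.59 and 3.94. The repair gene Rad50 between Il13 and Il5 had 1.61, and the outer neighbours Kif3a and Irf1 had 0.76 and 0.25. Il22, Iltifb and Ifng had 4.05, 6.37 and 2.19, between Mdm1, called higher at 1.55, and Dyrk2 at 0.72. Csf2 and Il3 had 1.98 and 2.54, between P4ha2 at −0.28 and Acsl6 at 1.44, and Acsl6 was called higher itself. Il2 and Il21 had 3.93 and 3.01, between Adad1 at 1.80, on 21 reads in MHC-II high against 2 reads in MHC-II low, and Cetn4 at 0.54. Of the clustered members, Il4, Il5, Il22, Iltifb, Ifng, Il3, Il21 and Il24 passed the minimum only through the MHC-II high library. Such genes had to differ to be counted. Il2, Il19, Il20, Il17a and Il17f were under the minimum. Clusters were not uniform, however. Il24, Il20, Il19 and Il10 had 2.38, 0.73, 3.01 and −0.24, Lif and Osm 1.56 and −0.65, and Il1a and Il1b 0.60 and −0.20. The neighbours of Il1a and Il1b, Ckap2l and F830045P16Rik, had 2.50 and 3.59 and were called higher, and near Il17a and Il17f, at 2.40 and 0.49, Tfap2b had 4.18. Castor1 beside Osm had −1.82 and was called lower.

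**Figure D4:**
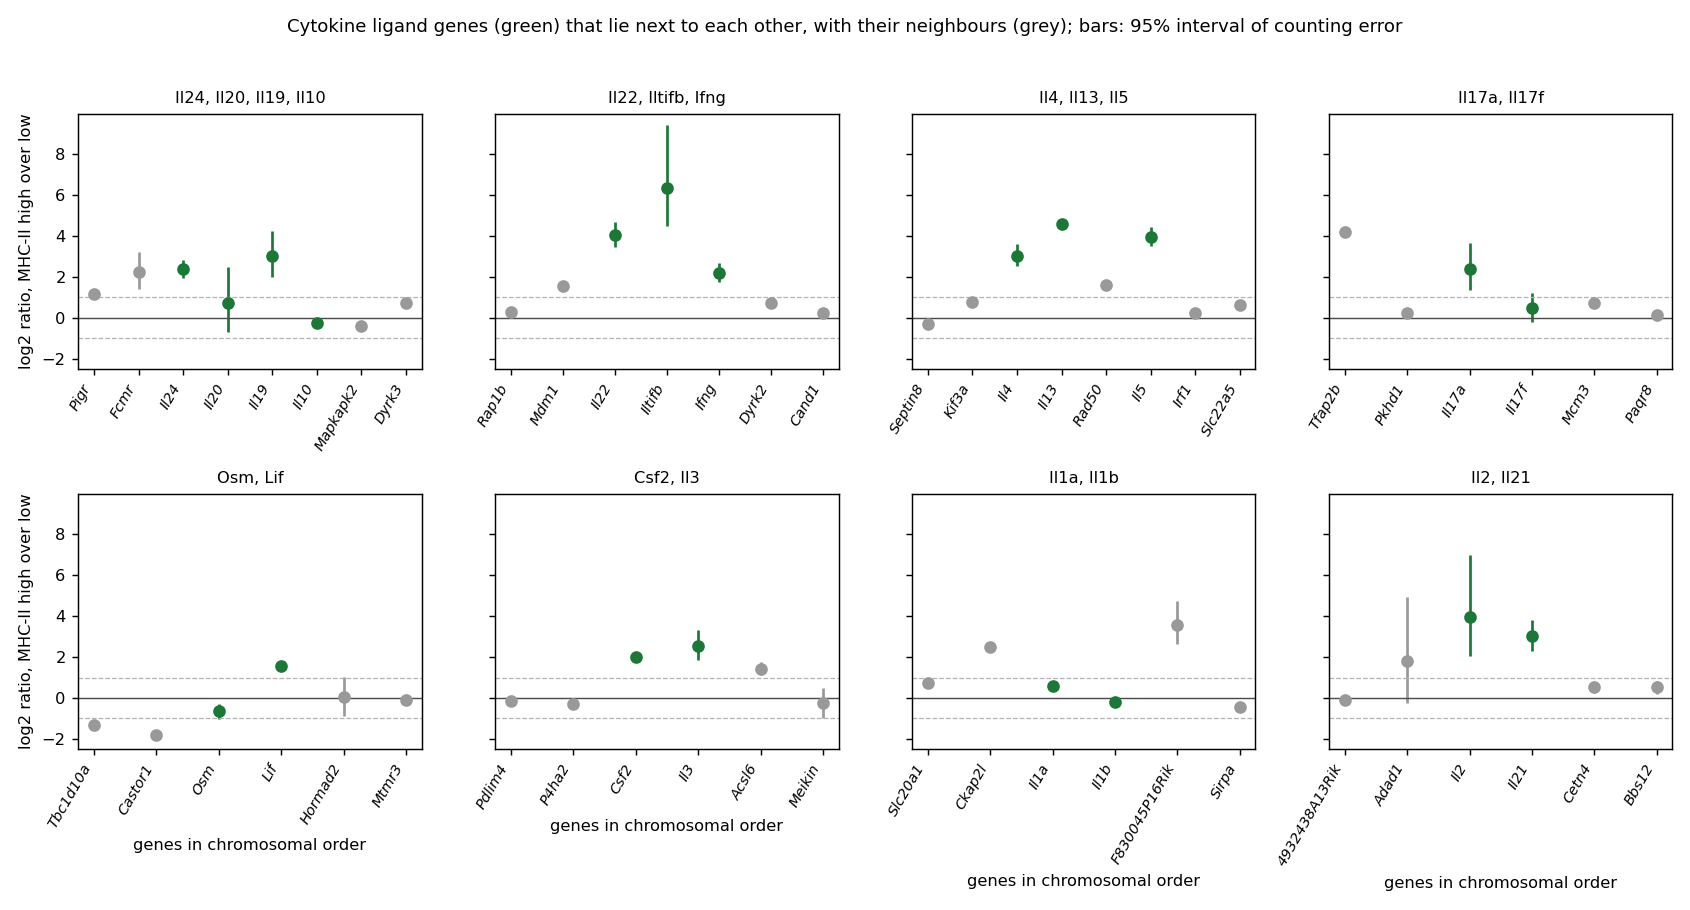
Log2 ratio (MHC-II high over MHC-II low) with 95% intervals of counting error for the 8 groups of adjacent cytokine ligand genes (green) and their protein-coding neighbours (grey), in chromosomal order and not to distance. Il13 at 4.59 stands above Rad50 at 1.61 and Irf1 at 0.25, while Il10 at −0.24 lies beside Il19 at 3.01.

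Of 46 listed receptor subunits 44 passed the minimum, with 18 called higher, 6 lower and 20 neither, against the same 14.5% and 10.9% of all genes. Several subunits were called in the direction of their ligands. Among such ligands, Il3, Il4, Il5, Il9, Il21, Il27 and Il31 passed the minimum only through the MHC-II high library. They had to differ to be counted, and Il2 was under the minimum. The common gamma chain gene Il2rg was at 167 CPM in MHC-II high against 30.9 CPM in MHC-II low, a ratio of 5.41 (5.14 to 5.70), and Il21r and Il9r had ratios of 7.56 (6.27 to 9.21) and 5.07 (4.53 to 5.68). For Il23a and Il12a, the subunits Il23r, Il12rb1 and Il12rb2 had ratios of 3.34, 2.51 and 3.86, all called higher. For Il5 and Csf2, the subunits Il5ra, Csf2ra and Csf2rb had ratios of 3.03, 2.19 and 2.46. The Il13 receptor pair was abundant in both libraries and not called, with Il4ra at 371 CPM in MHC-II high against 337 CPM in MHC-II low and Il13ra1 at 148 CPM in MHC-II high against 254 CPM in MHC-II low. With the RPKM totals Il4ra, Il20rb, Il17re, Il1rap, Il1r1, Ifngr2 and Il17ra were called higher, and the log2 ratio of Il13ra1, −0.78, turned to 0.22. Il2rb, which IL-2 and IL-15 share, and Il2ra, specific to IL-2, had ratios of 3.82 and 2.55, and Il15ra was at 73.2 CPM in MHC-II high against 79.6 CPM in MHC-II low. Il27ra and Il31ra had ratios of 2.82 and 3.23, and Il10ra, the specific chain for IL-10, had 10.8 (9.42 to 12.4), while Il10 was not called. The partner chains of Il27ra and Il31ra, gp130 (Il6st) and Osmr, had ratios of 0.171 and 0.349 and were called lower. The receptor chains for IL-22, Il22ra1 and Il10rb, were not called. Il22ra1 was at 8.39 CPM in MHC-II high against 11.6 CPM in MHC-II low. Il10rb was at 55.5 CPM in MHC-II high against 93.2 CPM in MHC-II low. Not called either were Il20rb at 149 CPM in MHC-II high against 99.1 CPM in MHC-II low and Il17re, the IL-17C receptor. Il17re was at 23.8 CPM in MHC-II high against 19.4 CPM in MHC-II low. Receptor genes of ligands called lower, Il6ra, Csf3r and Il1rap, were not called, with ratios of 0.823, 0.883 and 1.30, nor were Il1r1, with 1.08, and Il3ra, with 0.644. The sign turned for Il6ra, Csf3r and Il15ra with unscaled and RPKM totals, and for Il3ra, Il10rb, Il22ra1 and Il17rb with the RPKM totals.

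Other ligands were called in the opposite direction to at least 1 of their receptor chains. Il7 was called lower and its receptor gene Il7r higher, at 15.5 CPM in MHC-II high against 5.20 CPM in MHC-II low. Il33 was lower and Il1rl1, its receptor, higher at 13.7 CPM in MHC-II high against 2.48 CPM in MHC-II low. Il34 was lower and Csf1r higher at 20.5 CPM in MHC-II high against 4.69 CPM in MHC-II low. Csf1r is itself 1 of the 5 dendritic cell and macrophage genes called higher, of 10 past the minimum. Lif was higher, but its receptor gene Lifr was at 89.7 CPM in MHC-II high against 515 CPM in MHC-II low and gp130 (Il6st) at 77.4 CPM in MHC-II high against 453 CPM in MHC-II low, 5.74-fold (5.63 to 5.86) and 5.86-fold (5.73 to 5.99) lower. Tslp was higher and had 1 receptor chain on each side, Il7r called higher and Crlf2 2.46-fold lower (2.20 to 2.74). Ifng was higher and Ifngr1 2.22-fold lower (2.15 to 2.29), with Ifngr2 at 170 CPM in MHC-II high against 117 CPM in MHC-II low. Il31 was higher and Osmr, a chain of its receptor, 2.86-fold lower (2.78 to 2.95). Il27 and Ebi3 were higher and Il6st, a chain of the IL-27 receptor, lower. Of these ligands, Ifng, Il31 and Il27 passed the minimum only through the MHC-II high library. In the same direction, Il6 and Ctf1 were called lower, as were Il6st, which both use, and Lifr, which Ctf1 uses. Il17rc was 2.41-fold lower (2.26 to 2.57). With unscaled totals the calls of Crlf2, Ifngr1 and Il17rc were lost, with the RPKM totals that of Osmr too, and with TMM factors set on all genes that of Ifngr1. The tuft cytokine gene Il25 was lower, while its receptor genes Il17rb and Il17ra, at log2 ratios of −0.67 and 0.88, were not called. Il17ra was called higher with unscaled totals, at 1.16, and with the RPKM totals, at 1.88.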

How the data were processed

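Poly-A RNA of 2 sorted mTEC fractions was measured, 1 library each. The submitters' processing notes name CASAVA, Bowtie 1.0.0, bedtools and build mm9; the annotation is not given in the sources used here, nor are settings. As per the file headers, the authors deposited a read count, a length and an RPKM value for each RefSeq transcript. The deposited counts were whole numbers, and the deposited RPKM equalled count over length and a read total of 213854095 (high) or 142330178 (low). From the counts, stray lines (18 high, 36 low) were left out, copies of an accession were summed, and 29800 accessions listed in both tables with equal length were kept. Of 29920 accessions in either table, 29352 were named by RefSeq GRCm38.p6, 174 by GENCODE vM21 and 394 by neither. Each gene stood as its transcript with the most reads. The builds differ, so no coordinates are given for the counts.

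TMM factors (edgeR 4.0.16, R 4.3.3) were set on genes with a mean of at least 1 unscaled CPM. The kit kept no strand. As no replicate exists, no p-value was computed. The interval rule was run on simulated Poisson reads at the same library totals, with 200 genes changed. Such reads hold no spread between libraries and no PCR copies, so the run cannot check the calls against either. The rule for named genes was every member, with full values past the minimum, and the receptor subunits of called members. The members and gene lists were chosen with earlier results of these data known. Scalings, minimums, fold thresholds and the longest transcript were alternatives. TMM factors from all genes were added after seeing the data, as were the neighbour, overlap and promoter descriptions. Of the 46 members, 16 share exon sequence with another gene in GENCODE vM21 and 6 of these with a protein-coding one. The 9 members with several transcripts gave log2 ratios within 0.52 (Il4) or 0.17 (the others). Counts of a gene's transcripts could be nearly or fully equal, as for Il15, so these are not independent measurements.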

Additional observations from a re-analysis of the deposited data

How the results depend on the processing

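No paired analysis was possible because each group had 1 library, and for the same reason no replicate could be left out. The count of ligands called higher, 22, was 18 to 25 except at a minimum of 5 CPM (11 of fewer genes tested). That of ligands called lower, 7, was 5 to 8 except 4 with the RPKM totals. The median log2 ratio, 1.54, was 2.57 with the RPKM totals. Receptor calls, 18 higher and 6 lower, were 28 and 2 with the RPKM totals and 21 and 3 with unscaled totals. They were 10 and 2 at a 3-fold and 21 and 10 at a 1.5-fold threshold. The shares of all genes called, 14.5% higher and 10.9% lower, moved with the setting as well. They were 45.2% and 2.94% with the RPKM totals and 19.8% and 7.35% with unscaled totals. At 3-fold they were 8.01% and 5.24%, and at 1.5-fold 22.8% and 20.4%. Signs turned for 5 uncalled members with the RPKM totals, Csf1 (0.43), Il10 (0.77), Il17d (0.33), Il1b (0.80) and Osm (0.35), and for Il10 (0.0502) and Il1b (0.0852) with unscaled totals. No called member changed sign under any scaling or with the longest transcript. Only 9 of the 46 members list several transcripts, so the choice of transcript could alter few of them. The intervals of Il33 and Il7 reached within 2-fold with unscaled totals and with TMM factors set on all genes, that of Il33 also with median-of-ratios factors, and those of Ctf1, Il33 and Il7 with the RPKM totals, under which the intervals of Flt3l, Il11, Il1a and Kitl lay above 2-fold. Of all genes called in either direction, 57.0% were higher, against 72.9% with unscaled and 93.9% with RPKM totals and 42.6% without a minimum. Members with 2 to 30 reads in the low library have wide intervals.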

Other observations

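Relatives of these ligands outside the list were measured too. Of 12 such genes 8 passed the minimum, with 2 called higher and 1 lower. Of all genes past the minimum 14.5% were called higher and 10.9% lower. The type III interferon genes Ifnl2 and Ifnl3 were called higher, at 5.20 CPM in MHC-II high against 0.532 CPM in MHC-II low (ratio 9.77, 6.66 to 14.9) and 4.77 CPM in MHC-II high against 0.886 CPM in MHC-II low (ratio 5.38, 3.98 to 7.44). Both passed the minimum only through the MHC-II high library, so they had to differ to be counted. They are close copies of each other and their reads may be split between them. Thpo, the platelet growth factor gene, was 3.55-fold lower (2.92 to 4.31), at 1.29 CPM in MHC-II high against 4.57 CPM in MHC-II low. The IL-36 genes, listed here as Il1f6, Il1f8 and Il1f9, had log2 ratios of 0.48, −0.22 and 0.24, and Il1f5, the gene of their antagonist, was at 24.1 CPM in MHC-II high against 26.2 CPM in MHC-II low.

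Of 4 genes for decoy receptors and binding proteins, 1 was called higher and 0 lower, against the same 14.5% and 10.9% of all genes. This was Il22ra2, a soluble trap for IL-22, at 1.75 CPM in MHC-II high against 0.473 CPM in MHC-II low (ratio 3.71, 2.44 to 5.89). Il22 was called higher too, and both genes passed the minimum only through the MHC-II high library. The other decoy genes, Il1r2, Il18bp and Il13ra2, had log2 ratios of 0.75, −0.27 and −0.54.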
